A study of Homo sapiens with 8 samples.

Results

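Aminoacyl-tRNA synthetases attach each amino acid to its tRNA, the step that supplies the ribosome with charged tRNA. The genes described here are 36 nuclear-encoded synthetases, chosen by symbol: 20 cytosolic enzymes and 16 mitochondrial enzymes whose symbols end in 2. All 36 were among the 60754 genes and spike-in sequences listed, under Gencode 31 symbols such as AARS for the gene now named AARS1. All 36 also reached 1 TPM (a level scaled to the library total and corrected for transcript length) in at least 1 library, as did 15614 genes in all, and these 15614 were the genes tested.

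The libraries came from SEM, a human B-cell acute lymphoblastic leukemia (B-ALL) line with a rearranged KMT2A gene. In every group both alleles of CTCF, which encodes a zinc-finger protein that organizes chromatin loops, carried a C-terminal miniAID-mClover3 tag. All cells also expressed a mutant of the adaptor OsTIR1 together with a Zeocin resistance gene from a lentiviral cassette, and this adaptor targets the tagged protein for degradation when the auxin analog 5-Ph-IAA is present. Each of 2 single-cell-derived clones, C17.2 and C3.2, contributed 2 libraries of untreated parental cells and 2 of resistant cells. Resistant cells had been kept until day 36 in 5-Ph-IAA (1 μM) plus Zeocin (100 μg/ml), and these drugs were then washed out. The resistant cells of C17.2 carried a nonsense mutation that truncates CTCF ahead of the tag, whereas those of C3.2 carried a missense mutation within miniAID. By the paper's immunoblots, C17.2 resistant cells after washout held the full-length tagged protein again, beside the truncated form. Parental cells were untreated, so within a clone the auxin analog, Zeocin, time in culture, washout and mutation cannot be told apart. Each clone stands for a single line of cells, and the numbers that open the library titles fall in a separate range for each clone, so clone and anything those numbers mark cannot be told apart. The labels number no replicates and do not say whether paired libraries were separate cultures, so p-values measure only the spread between libraries. With 2 libraries against 2, an exact permutation test cannot go below p = 0.333, and all calls below rest on limma, which shares 1 estimate of the spread over the 4 groups. Whether the parental and resistant libraries of a clone overlap is given as a description and adds no support to a call. The share of all tested genes without such overlap was not counted.

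Cytosolic synthetases charge tRNA for translation on ribosomes of the cytoplasm, whereas the mitochondrial set serves the ribosomes inside mitochondria. The sets are encoded by separate genes, except that GARS and KARS each give rise to both forms and that mitochondrial glutaminyl-tRNA is made by amidation. The 8 cytosolic members DARS, EPRS, IARS, KARS, LARS, MARS, QARS and RARS assemble with the scaffold proteins AIMP1, AIMP2 and EEF1E1 into the multisynthetase complex. EPRS joins the glutamate and proline enzymes in a single chain, and FARSA and FARSB are the 2 subunits of the phenylalanine enzyme. Many cytosolic synthetase genes are known targets of ATF4, the transcription factor of the integrated stress response and of amino acid shortage.

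ATF4 binds DNA together with C/EBP proteins at a composite element, and the gene promoters were therefore searched for TGATGNAA or its reverse complement TTNCATCA, which is the same motif on the other strand. RefSeq windows of 300 bases (GRCh38.p14, 250 before and 50 after the annotated start) were matched for 30 of the 36 genes. No window was matched for AARS2, DARS, LARS, VARS, VARS2 and YARS. Some genes had 2 windows, and a gene was counted if any of its windows held the motif. By gene, it was held by 7 of 16 cytosolic and 1 of 14 mitochondrial genes, against 2.73% of the 9719 tested genes with a window. By window, 3.62% of all 35116 windows held it. The 8 matches are shown because the cytosolic genes holding them are among those with lower RNA in resistant cells. Each line gives 30 bases of the gene's strand 5′ to 3′, with the motif in capitals and 11 bases on either side.
CARS chr11:3057407-3057436, minus strand: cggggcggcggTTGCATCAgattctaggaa
GARS chr7:30594834-30594863, plus strand: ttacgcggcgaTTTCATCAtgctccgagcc
IARS chr9:92293692-92293721, minus strand: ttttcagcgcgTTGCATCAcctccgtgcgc
AARS chr16:70289675-70289704, minus strand: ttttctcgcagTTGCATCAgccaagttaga
MARS chr12:57488053-57488082, plus strand: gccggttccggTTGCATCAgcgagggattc
NARS chr18:57621804-57621833, minus strand: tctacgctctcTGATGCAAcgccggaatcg
TARS chr5:33440956-33440985, plus strand: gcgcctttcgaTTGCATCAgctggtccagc
YARS2 chr12:32756076-32756105, minus strand: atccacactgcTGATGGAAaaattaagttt
Of these 8, 6 hold the exact word TTGCATCA or its reverse, whereas GARS and YARS2 differ from it at the free base N. The match began 2 bases before the annotated start in CARS, 4 before in MARS, 13 before in IARS, 33 before in GARS and 187 before in AARS. In TARS it began 2 bases and in NARS 14 bases after the start. YARS2 had its match 197 bases before the start. A match in letters is a description of sequence, and binding was not measured in these files.

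The cytosolic genes were the more abundant set in every library (plot of the level of each synthetase by library). In C17.2 parental cells IARS was the highest at 245 and 238 TPM, followed by WARS at 206 and 192 TPM. FARSB was the lowest cytosolic gene in all 8 libraries, at 6.43 to 9.53 TPM. FARSA, the other subunit of the same enzyme, stood at 28.0 to 38.4 TPM, so the RNAs of the 2 subunits were not matched in level. Among mitochondrial genes NARS2, the asparagine enzyme, was the highest at 29.1 to 37.6 TPM and PARS2, the proline enzyme, the lowest at 1.64 to 2.73 TPM. TPM corrects for length, which allows these levels to be set side by side between genes.

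**Figure D1:**
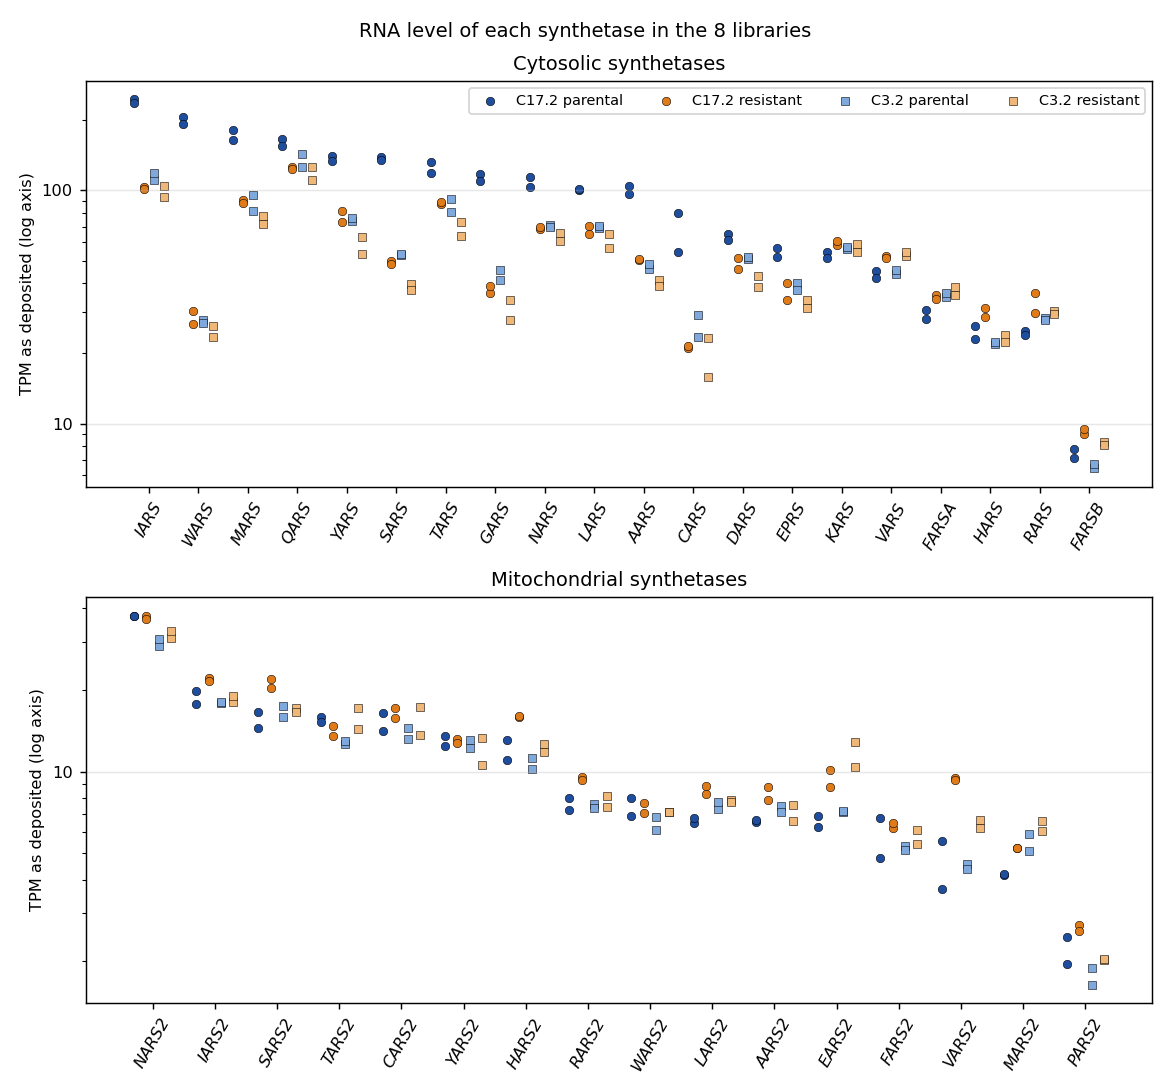
RNA level of each synthetase in each library, in TPM as deposited on a log axis, with cytosolic genes above and mitochondrial genes below. Each point is 1 library, and genes run from the highest to the lowest mean of C17.2 parental cells in both panels. From IARS to EPRS the C17.2 parental points lie above those of the other groups, with WARS the widest apart at 192 to 206 against 23.4 to 30.3 TPM.

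C17.2 resistant cells were compared with their untreated parental cells to ask how synthetase RNA differed after the long-term drug treatment and washout as a whole. Of the 20 cytosolic genes, 14 fell and none rose, with a median log2 fold change of -0.71 over all 20 and a range of -2.92 to 0.26. Among all tested genes 27.3% were called, 13.9% lower and 13.4% higher, with a median of 0.00. The 14 were WARS, CARS, GARS, SARS, IARS, AARS, MARS, YARS, NARS, LARS, EPRS, TARS, DARS and QARS. Called genes had an adjusted p under 0.05 in limma (two-sided, Benjamini-Hochberg over 15614 genes) on log2(scaled TPM + 1), and fold changes are on that scale. In bulk RNA, fewer cells of a type and less RNA per cell cannot be told apart.

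WARS, the tryptophan enzyme, fell the most. Its level was 206 and 192 TPM in the parental libraries and 26.7 and 30.3 TPM in the resistant libraries, with means of 199 ± 9.98 and 28.5 ± 2.55 TPM (SD, n = 2 each). Parental cells thus held 6.97 times the resistant level, and the libraries were far from overlapping. The log2 fold change was -2.92 (SE 0.085, adjusted p = 1.3e-05). WARS lies on chromosome 14 at 100333790 to 100376805 on the minus strand (GRCh38, Gencode 44), and neither of its 2 matched promoter windows held the motif. WARS is also known as an interferon-inducible gene.

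CARS, the cysteine enzyme (chromosome 11, 3000922 to 3057613), stood at 80.3 and 54.7 TPM in parental and at 21.1 and 21.6 TPM in resistant cells. The parental libraries differed more from each other than those of any other strongly falling member, but both exceeded the resistant pair. Its log2 fold change was -1.74 (SE 0.21, adjusted p = 0.00200). GARS, the glycine enzyme (chromosome 7, 30580533 to 30634033), was at 118 and 110 TPM against 36.5 and 39.0 TPM, a log2 fold change of -1.73 (SE 0.071, adjusted p = 4.3e-05). As GARS also makes the mitochondrial glycine enzyme, its RNA cannot be assigned to 1 compartment.

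SARS, the serine enzyme (chromosome 1, 109213918 to 109238182), had 139 and 135 TPM in parental cells and 49.9 and 48.6 TPM in resistant cells. The paired libraries lay close together, and the log2 fold change of -1.62 had one of the smaller errors (SE 0.046, adjusted p = 1.2e-05). IARS, the isoleucine enzyme (chromosome 9, 92210207 to 92293854), was at 245 and 238 TPM against 104 and 102 TPM (log2 fold change -1.39, SE 0.077, adjusted p = 0.00011). AARS, the alanine enzyme (chromosome 16, 70251983 to 70289707), was at 104 and 96.5 TPM against 50.4 and 50.8 TPM (log2 fold change -1.13, SE 0.038, adjusted p = 2.0e-05). For each of these 3 genes both parental libraries lay above both resistant libraries.

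The other 8 that fell did so by less, from -1.10 for MARS (adjusted p = 0.000161) and -0.98 for YARS (adjusted p = 0.000217) to -0.52 for QARS (adjusted p = 0.00239). Between them lay NARS at -0.81, LARS at -0.73, EPRS at -0.70, TARS at -0.66 and DARS at -0.53. The 6 cytosolic genes without a call were KARS, VARS, FARSA, HARS, FARSB and RARS, with log2 fold changes from 0.00 to 0.26. KARS, the lysine enzyme, was nearest to 0, with a 95% interval of -0.09 to 0.09. RARS, the arginine enzyme, was nearest to a call (0.26, 95% interval 0.07 to 0.44, adjusted p = 0.0508). Both subunits of the phenylalanine enzyme were in this group, FARSA at 0.09 and FARSB at 0.13. Scaling bears on these 6: with TPM used as deposited, 5 of them (all but KARS) were called higher, or 5 of 20 where 24.7% of all tested genes were, a share near the background. The 14 were called lower under that and every other alternative run, against 8.19% of all tested genes with TPM as deposited.

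Several synthetase genes share bases with a neighbor, and the sources do not state whether reads were counted by strand. MARS overlaps 982 bases of DDIT3 on the opposite strand, and DDIT3 itself went from 34.6 and 35.4 TPM to 7.20 and 9.66 TPM in C17.2. HARS and HARS2 lie head to head and share 108 bases. EARS2 shares 1242 bases on the same strand with GGA2, which stood at 41.1 to 68.3 TPM. The part of these neighbors in the synthetase values was not tested.

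The 16 mitochondrial genes gave few calls in C17.2. None was called lower and 3 were called higher (13.9% and 13.4% of all tested genes), and their median log2 fold change was 0.10 with a range of -0.29 to 0.76. VARS2, the mitochondrial valine enzyme, was at 5.56 and 3.70 TPM in parental cells and at 9.50 and 9.35 TPM in resistant cells (log2 fold change 0.76, SE 0.14, adjusted p = 0.00844). SARS2, the serine enzyme, was at 16.6 and 14.5 TPM against 21.9 and 20.3 TPM (0.26, SE 0.067, adjusted p = 0.0309). HARS2, the histidine enzyme, was at 13.1 and 11.1 TPM against 15.9 and 16.1 TPM (0.23, SE 0.064, adjusted p = 0.0426). The groups did not overlap for any of the 3, which is a description and adds no support to the calls. The gene farthest below 0 was TARS2, the threonine enzyme, at -0.29 (adjusted p = 0.0963). The 3 calls rest on single libraries: the count was 0 without C17.2 resistant library 1, and 1 each without resistant library 2, parental library 2 or either C3.2 parental library. With TPM as deposited 8 mitochondrial genes were called higher, beside the 24.7% of all tested genes on that scale.

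**Figure D2:**
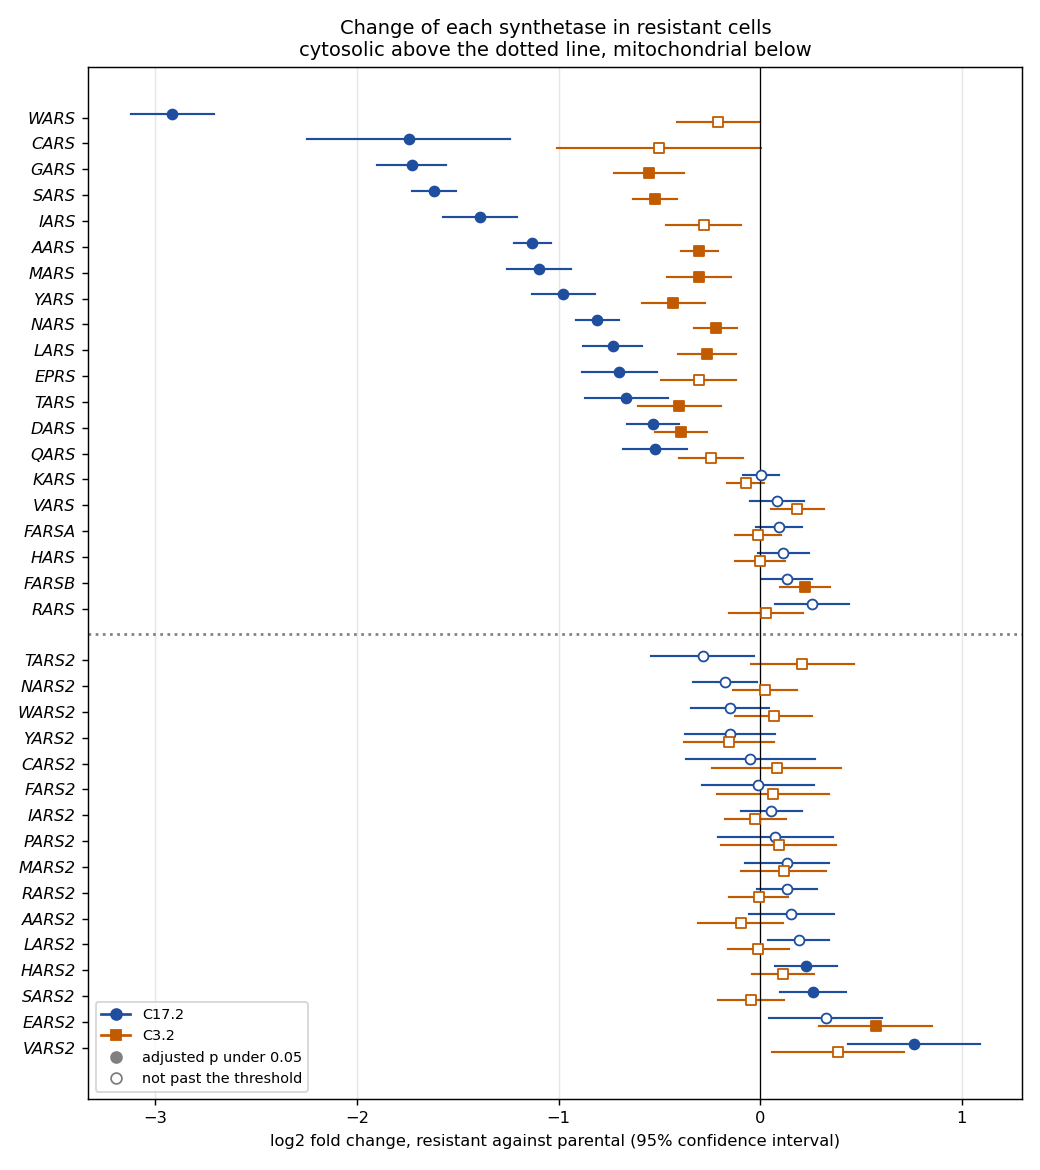
Log2 fold change of each synthetase in resistant against parental cells, with 95% confidence intervals from limma, for C17.2 (circles) and C3.2 (squares). Filled symbols had an adjusted p under 0.05, and cytosolic genes are above the dotted line. The 14 cytosolic genes from WARS to QARS lie left of 0 in C17.2, from -2.92 to -0.52, while mitochondrial genes lie between -0.29 and 0.76.

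In C3.2 the cytosolic synthetases fell by less and in fewer members. Of 20 genes, 9 fell and 1 rose, against 6.91% and 4.43% of all tested genes (11.3% in either direction), and the median log2 fold change was -0.27 with a range of -0.55 to 0.22. Resistant cells were below parental cells for 17 of the 20, called or not, against 7717 of the 15614 tested genes. The 9 were GARS, SARS, YARS, TARS, DARS, MARS, AARS, LARS and NARS. All 9 also fell in C17.2. Lower calls in both clones were made for 4.16% of all tested genes. WARS, CARS, IARS, EPRS and QARS fell in C17.2 and were not called in C3.2.

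GARS was at 41.4 and 45.5 TPM in C3.2 parental cells and at 33.8 and 27.9 TPM in resistant cells (log2 fold change -0.55, SE 0.071, adjusted p = 0.00778). SARS was at 53.0 and 53.6 TPM against 39.9 and 37.3 TPM (-0.52, SE 0.046, adjusted p = 0.00220). YARS, the tyrosine enzyme, was at 74.1 and 76.4 TPM against 63.2 and 53.7 TPM (-0.43, SE 0.065, adjusted p = 0.0120). In each of the 3, both resistant libraries lay below both parental libraries, with parental cells of SARS at 1.38 times the resistant level. TARS, the threonine enzyme, was at 92.3 and 81.0 TPM against 73.4 and 63.6 TPM (-0.40, SE 0.085, adjusted p = 0.0325). DARS, the aspartate enzyme, was at 50.8 and 52.0 TPM against 43.2 and 38.6 TPM (-0.39, SE 0.054, adjusted p = 0.00914). MARS, the methionine enzyme, was at 82.0 and 95.6 TPM against 77.9 and 72.2 TPM (-0.30, SE 0.066, adjusted p = 0.0363). These groups did not overlap either, although for MARS the nearest parental and resistant libraries were close.

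WARS, which changed most in C17.2, was at 27.9 and 27.0 TPM in C3.2 parental cells and at 23.4 and 26.1 TPM in resistant cells. Its log2 fold change of -0.21 was not called (95% interval -0.41 to 0.00, adjusted p = 0.178). CARS was at 29.3 and 23.6 TPM against 23.3 and 15.8 TPM, and its wide interval of -1.01 to 0.00 holds falls as large as those called in other genes. IARS was at 111 and 119 TPM against 93.8 and 104 TPM (-0.28, adjusted p = 0.0665). In TPM as deposited, the parental libraries of these 3 genes lay above the resistant libraries, without passing the threshold. That order is a description and adds no support for a change. FARSB was the gene that rose, from 6.43 and 6.75 TPM to 8.32 and 8.12 TPM (0.22, SE 0.051, adjusted p = 0.0416).

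The mitochondrial set in C3.2 had 1 gene of 16 that rose and none that fell, beside 4.43% and 6.91% of all tested genes, with a median log2 fold change of 0.06 and a range of -0.16 to 0.57. EARS2, the glutamate enzyme, was at 7.10 and 7.16 TPM in parental cells and at 10.4 and 12.8 TPM in resistant cells (log2 fold change 0.57, SE 0.12, adjusted p = 0.0289). In C17.2 the same gene gave 0.32 without a call (adjusted p = 0.0861). VARS2 was at 4.55 and 4.39 TPM against 6.18 and 6.64 TPM in C3.2, a change of 0.39 that was not called (adjusted p = 0.127). The difference between the clones was called for no mitochondrial gene.

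Calls in C3.2 were less firm than in C17.2. With TPM as deposited, GARS and SARS were the only cytosolic genes still called lower, so AARS, DARS, LARS, MARS, NARS, TARS and YARS lost their call. With C3.2 fitted alone no synthetase was called. The rest of this paragraph is about fits with 1 library left out. The count of 9 lower cytosolic genes was 1 without C3.2 parental library 1, 2 without parental library 2, and 5 without either C17.2 parental library or C17.2 resistant library 2. SARS kept its call without each library in turn. GARS (adjusted p = 0.0519 and 0.0617), YARS (0.0859 and 0.0753), DARS (0.0728 and 0.0622) and AARS (0.0516 and 0.0526) missed it only without C3.2 parental library 1 or 2, respectively. MARS and FARSB missed it without each of the 8 libraries in turn, reaching adjusted p = 0.131 and 0.170. LARS and EARS2 missed it without any library other than C3.2 resistant library 1, reaching 0.181 and 0.140, and without that library 2 mitochondrial genes were called higher. TARS passed only without C3.2 parental library 2 or resistant library 1, reaching 0.130, and NARS only without C17.2 resistant library 1 or C3.2 resistant library 1, reaching 0.139.

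The difference between the clones was tested as its own contrast, the change in C17.2 minus that in C3.2. It was called for 10 of 20 cytosolic genes, all with the larger fall in C17.2, and for none of the 16 mitochondrial genes. Among all tested genes 9.96% were called, 5.02% in the lower and 4.94% in the higher direction. The 10 were WARS, CARS, GARS, IARS, SARS, AARS, MARS, NARS, YARS and LARS. WARS had a difference of -2.71 (95% interval -3.00 to -2.42, adjusted p = 0.000283). GARS differed by -1.18 (-1.42 to -0.93, adjusted p = 0.00202) and IARS by -1.11 (-1.37 to -0.85, adjusted p = 0.00314). Thus a synthetase that was not called in C3.2, IARS, differed between the clones by nearly as much as one that was, GARS. CARS differed by -1.24 (-1.96 to -0.53) at an adjusted p of 0.049996, and leaving out any library other than C3.2 resistant library 2 took it past the threshold, to 0.0748 to 0.151. LARS passed only without 1 of the C3.2 resistant libraries, otherwise reaching 0.0886, and YARS was lost without any parental library or C17.2 resistant library 1, reaching 0.0764. For TARS and DARS, called in both clones, the intervals of the difference were -0.55 to 0.03 and -0.32 to 0.04.

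Within the cytosolic set, both C17.2 parental libraries lay above the other 6 libraries after scaling for the 14 genes that fell in C17.2 and for no other, a pattern of 15.1% of all tested genes. Where the resistant cells of C17.2 stood against untreated C3.2 cells depends on the scaling. In TPM as deposited their mean was 1.04 times the C3.2 parental mean for WARS, 0.806 times for CARS, 0.869 times for GARS, 0.924 times for SARS, 0.894 times for IARS and 1.07 times for AARS. After scaling these ratios were 0.829, 0.641, 0.693, 0.737, 0.714 and 0.853, in the same order. C17.2 parental cells were at 7.26 times the C3.2 parental mean for WARS and 2.11 times for IARS as deposited, and at 6.47 and 1.88 times after scaling. KARS shows a member without this pattern, at 54.6 and 51.4 TPM in C17.2 parental cells and 51.4 to 60.7 TPM over all 8 libraries. The parental pair of C17.2 lay below the other 6 libraries for 3 cytosolic genes, FARSA, RARS and VARS, against 14.6% of all tested genes. Of the mitochondrial genes 1 of 16, NARS2, lay above in this way, and 6 lay below, namely AARS2, EARS2, LARS2, MARS2, RARS2 and SARS2. These comparisons of level cross the clones and their separate ranges of library numbers.

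Cytosolic and mitochondrial enzymes were then compared within each library. The cytosolic genes together took 0.488% and 0.482% of all protein-coding TPM in C17.2 parental cells and 0.260% and 0.261% in resistant cells. In C3.2 they took 0.295% and 0.294% in parental and 0.266% and 0.262% in resistant cells. The cytosolic share was thus highest in the C17.2 parental pair, while the other 6 libraries lay between 0.260% and 0.295%. Mitochondrial genes took 0.0443% in both C17.2 parental libraries and 0.0498% and 0.0470% in the resistant libraries. In C3.2 they took 0.0442% and 0.0437% against 0.0485% and 0.0510%. The mitochondrial share was therefore higher in every resistant library than in every parental library (plot of the share of protein-coding TPM), and the direction was opposite to that of the cytosolic share. On this protein-coding denominator the median of all tested genes also lay above 0, at 0.07 in C17.2 and 0.08 in C3.2 (log2), beside 0.17 and 0.15 for the mitochondrial genes.

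**Figure D3:**
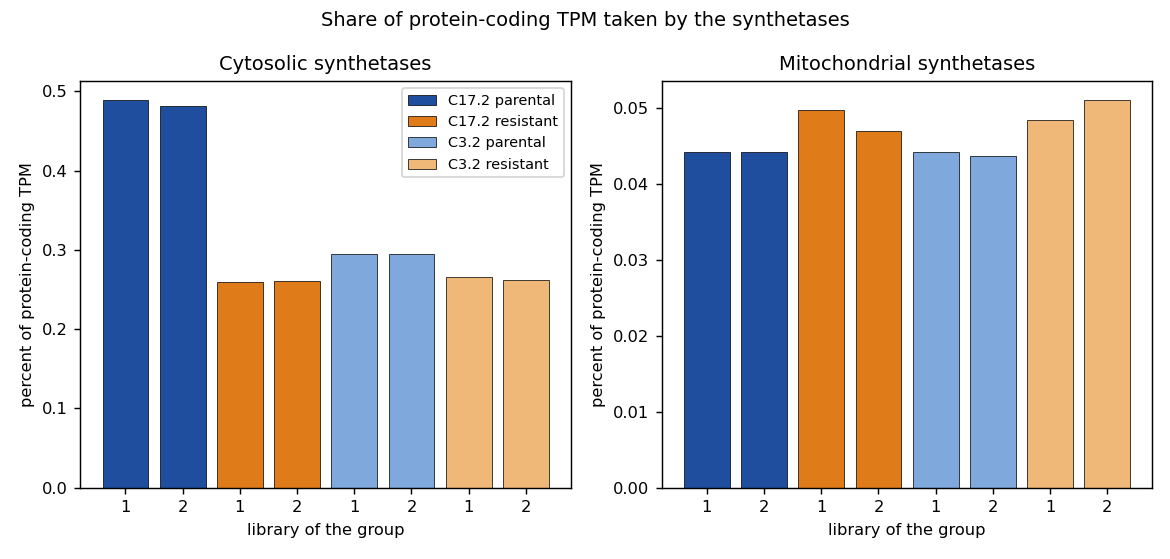
Share of all protein-coding TPM taken by the 20 cytosolic synthetases (left) and the 16 mitochondrial synthetases (right), in percent, 1 bar a library. The left and right axes differ in scale, and both start at 0. C17.2 parental libraries stand at 0.482% and 0.488% on the left, and the 4 resistant libraries on the right, at 0.0470% to 0.0510%, are all above the parental libraries.

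On a log2 scale, the mean level of the cytosolic genes exceeded that of the mitochondrial genes by 2.92 and 2.90 in C17.2 parental libraries and by 1.99 and 2.08 in resistant libraries. In C3.2 the gap was 2.30 and 2.29 in parental and 2.03 and 1.94 in resistant libraries. The resistant libraries had the smaller gap in both clones, and the 4 resistant libraries of the clones had similar gaps.

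Pairing the enzymes by amino acid gave 17 pairs for 16 amino acids, since EPRS pairs with both EARS2 and PARS2 and FARS2 with both FARSA and FARSB. The cytosolic change lay below the mitochondrial change in 14 of 17 pairs in C17.2, with a median difference of -0.83 (log2), and in 15 of 17 in C3.2, with a median of -0.26. The widest pair in C17.2 was tryptophan, with WARS at -2.92 and WARS2 at -0.15. Serine gave -1.62 for SARS against 0.26 for SARS2, where the members were called in opposite directions. Cysteine gave -1.74 against -0.05 for CARS2, isoleucine -1.39 against 0.06 for IARS2, and alanine -1.13 against 0.15 for AARS2. In none of these last 3 was the mitochondrial partner called. Arginine and both phenylalanine pairs were the exceptions in C17.2, with the cytosolic gene 0.11 to 0.15 above its partner. In C3.2 the widest pair was EPRS at -0.30 and EARS2 at 0.57, and the exceptions were FARSB with FARS2 and RARS with RARS2.

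**Figure D4:**
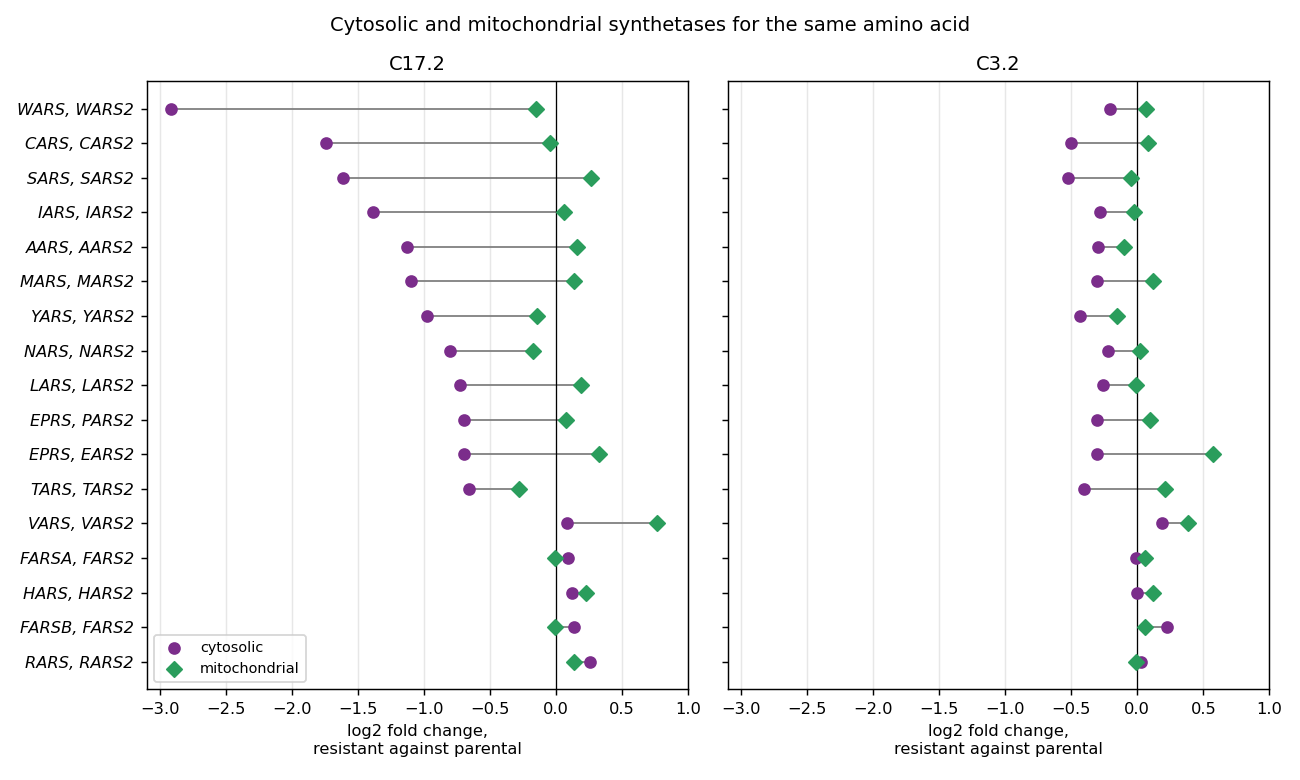
Log2 fold change, resistant against parental, of cytosolic (circles) and mitochondrial (diamonds) enzymes joined by amino acid, for C17.2 (left) and C3.2 (right). The joined pairs are longest at the top left, where WARS stands at -2.92 and WARS2 at -0.15, and most cytosolic points lie left of their partners in both panels.

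Genes that fell lay both inside and outside the multisynthetase complex, and the counts here stand beside lower calls for 13.9% of all tested genes in C17.2 and 6.91% in C3.2. In C17.2, 6 of the 8 complex members fell (DARS, EPRS, IARS, LARS, MARS and QARS) with a median log2 fold change of -0.61 over the 8, and KARS and RARS were not called. Outside the complex 8 of 12 fell, with a median of -0.89. In C3.2 the counts were 3 of 8 and 6 of 12. The synthetases also divide into 2 structural classes with unrelated catalytic folds, and EPRS, which joins both, was left out here. Of 9 class I genes 7 fell in C17.2 and 3 in C3.2, and of 10 class II genes 6 fell in each clone.

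The promoter matches printed above can be set beside these changes. Among cytosolic genes with a matched window, 7 of the 11 that fell in C17.2 held the motif and 0 of the 5 that were not called did. Of those that fell in C3.2, 5 of 6 held it, as did 2 of the 9 that were not called, and the 1 called higher, FARSB, did not. WARS, SARS, EPRS and QARS fell in C17.2 with no match in any of their windows. ATF4 itself was at 361 and 337 TPM in C17.2 parental cells and at 197 and 199 TPM in resistant cells (log2 fold change -0.98, adjusted p = 3.07e-05), and in C3.2 at 214 and 222 against 158 and 153 TPM (-0.55, adjusted p = 0.000880). ATF4 thus moved in the same direction as the cytosolic genes, and its part in their values was not tested.

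Other genes of tRNA charging and delivery were examined as a list of 20. In C17.2, 6 fell and 2 rose, against 13.9% and 13.4% of all tested genes, with a median log2 fold change of -0.06. In C3.2, 5 fell and 1 rose, against 6.91% and 4.43%, with a median of -0.03. XPOT, which exports tRNA from the nucleus, had the largest fall of the list, from 101 and 93.1 TPM to 46.5 and 48.3 TPM in C17.2 (log2 fold change -1.17, adjusted p = 2.0e-05). In C3.2 it went from 46.8 and 46.8 TPM to 42.1 and 40.6 TPM (-0.24, adjusted p = 0.0148), and the clones differed by -0.93 (adjusted p = 0.000673). The scaffolds of the multisynthetase complex gave 1 call: AIMP1 was at 0.03 and -0.03 and AIMP2 at 0.12 and 0.25 in C17.2 and C3.2, none called. EEF1E1, the third scaffold, fell in C17.2 by 0.32 (log2, adjusted p = 0.0165) and stood at -0.21 in C3.2 (adjusted p = 0.0980).

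Among 6 elongation factors, which deliver charged tRNA to the ribosome, the 4 cytosolic ones fell in both clones. EEF1A1, the tRNA carrier, changed by -0.23 in C17.2 and -0.41 in C3.2 (log2, adjusted p = 0.0266 and 0.0101). Its exchange factor subunits EEF1B2, EEF1D and EEF1G changed by -0.40, -0.24 and -0.40 in C17.2 and by -0.44, -0.17 and -0.38 in C3.2. The mitochondrial factors TUFM and TSFM were not called in either clone. EEF1A1 and its partners have near-identical pseudogenes, so reads may have been split and these values are uncertain. In the amidation and formylation list of 4 only GATC was called, at 0.32 in C3.2 (adjusted p = 0.0207). Of 4 synthetase-like and editing genes, DTD1, which removes D-amino acids from tRNA, rose by 0.62 in C17.2 (adjusted p = 0.00203) and TARSL2, a threonyl-tRNA synthetase-like enzyme, by 0.41 (adjusted p = 0.0391). In C3.2, without a call, DTD1 stood at 0.16 (adjusted p = 0.219) and TARSL2 at 0.43 (adjusted p = 0.0589).

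CTCF, the tagged gene, was at 35.4 and 33.7 TPM in C17.2 parental cells and at 51.1 and 54.7 TPM in resistant cells. In C3.2 it was at 32.2 and 32.3 against 44.2 and 41.5 TPM, so its RNA rose in both clones. Of 9 B-cell precursor markers 8 were at 1 TPM or more in every library, DNTT being the exception at 0 to 0.25 TPM. The 9 summed to 835 to 887 TPM in C17.2 parental and 779 to 783 TPM in C17.2 resistant libraries, and to 820 to 874 and 703 to 739 TPM in C3.2. IGLL1, a surrogate light chain gene, changed by -2.16 in C17.2 and -2.35 in C3.2 (log2), and CD79B, a subunit of the B-cell receptor, by -1.51 and -1.03. PAX5 went the other way in C3.2, at 0.27 (limma adjusted p = 0.0227), and stood at 0.02 in C17.2 without a call. Myeloid markers summed to 0.64 to 0.69 TPM in parental and 1.17 to 3.21 TPM in resistant libraries of C17.2, and to 0.54 to 0.70 and 1.85 to 1.92 TPM in C3.2. Most of each sum was a single low gene, LYZ, at 0.97 and 2.18 TPM in C17.2 resistant and 1.84 and 1.80 TPM in C3.2 resistant libraries. LYZ was not called by limma in C17.2 (adjusted p = 0.0715) or C3.2 (adjusted p = 0.0552). The part of these markers in the synthetase values was not tested. T cell markers summed to 0 to 0.25 TPM with CD3D at 0, and erythroid markers to 0 to 0.21 TPM. Sequencing depth is unknown from TPM, and protein-coding genes took 36.0% to 43.3% of TPM. Of called genes in C17.2, 49.0% rose after scaling, against 75.1% with TPM as deposited and 64.5% after rescaling over protein-coding genes. In C3.2, 39.0% rose, against 57.8% as deposited, 70.1% after rescaling and 50.8% after quantile normalization. In the difference between clones 49.6% of calls were positive, against 64.0% as deposited.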

How the data were processed

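Total RNA from 8 libraries was depleted of ribosomal RNA and sequenced. The authors trimmed reads with Trim Galore 0.6.3, aligned them to GRCh38 (hg38) with STAR 2.7.9a and quantified Gencode 31 genes with RSEM 1.3.1, and they deposited 1 table of TPM for all libraries. The labels describe single-end and the study's methods paired-end reads. TPM holds no depth, so no counting interval can be given.

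Genes of at least 1 TPM in at least 1 library were kept. A trimmed mean of the log2 ratios between libraries set their scaling (30% of ratios and 5% of means trimmed at each end, factors 0.893 to 1.16), and log2(scaled TPM + 1) was fitted with limma 3.58.1 in R 4.3.3 (4 groups, contrasts within each clone and their difference, empirical Bayes with trend, Benjamini-Hochberg threshold 0.05). Fold changes understate those of low genes. Means ± SD are on TPM as deposited. The fit was tested on simulated data. Paired libraries had correlations of 0.968 to 0.979 across genes, and no 2 libraries held identical values.

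Members and lists were chosen with earlier results of these data known. Values in every library are given for the 6 largest falls and up to 4 largest rises in each clone and the 4 largest differences between clones. Alternatives were TPM as deposited, rescaling over protein-coding genes, quantile normalization, a pseudocount of 0.1, other filters, no trend, each clone alone, and each library left out. RefSeq promoter windows (GRCh38.p14) were searched on both strands. Positions are from Gencode 44. Protein sequences were not analysed here.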

Additional observations from a re-analysis of the deposited data

Results flagged for a closer look

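For 12 genes the change in C17.2 differed from that in C3.2 by limma's test of the difference, and these are given as values (C17.2 minus C3.2, log2). The 10 cytosolic synthetases were WARS at -2.71, CARS at -1.24, GARS at -1.18, IARS at -1.11, SARS at -1.09, AARS at -0.83, MARS at -0.79, NARS at -0.59, YARS at -0.55 and LARS at -0.47. XPOT, the tRNA exporter, differed by -0.93. DTD1 differed in the other direction, by 0.46 (adjusted p = 0.0464), but missed the threshold without each of the 8 libraries in turn (adjusted p = 0.0642 to 0.146) and under 4 of 7 other alternatives (adjusted p = 0.0336 to 0.0802 over the 7). No mitochondrial synthetase was among them. The numbers that open the library titles fall in a separate range for each clone, so clone and anything those numbers mark cannot be told apart.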

How the results depend on the processing

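Each of the 14 cytosolic falls in C17.2 kept its call under all 8 alternatives and without each of the 8 libraries, and no called synthetase turned its direction. No paired analysis was possible because the labels give the libraries no replicate numbers. With TPM as deposited, which moved the median of all genes by 0.13 in C17.2, 5 cytosolic and 8 mitochondrial genes were called higher there, in C3.2 2 cytosolic genes were called lower and 0 higher, and 2 related genes were called. The medians were then -0.56 (cytosolic) and 0.24 (mitochondrial) in C17.2 and -0.21 and 0.12 in C3.2. Rescaling over protein-coding genes gave 4 and 6 higher in C17.2, 5 lower and 2 higher cytosolic genes in C3.2, 1 related difference, and medians of -0.63, 0.17, -0.17 and 0.15. Quantile normalization gave 5 lower and 2 higher cytosolic genes in C3.2, 5 and 2 related calls, 1 related difference, and medians of 0.15 (mitochondrial, C17.2) and -0.19 (cytosolic, C3.2).

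A pseudocount of 0.1 and a filter in 2 libraries each gave 1 cytosolic gene higher in C17.2. Without a filter 1 mitochondrial gene was higher in C17.2, 0 cytosolic and 0 mitochondrial genes were higher in C3.2, 1 related difference was called, and 1170 genes in all were called in C3.2. Without the trend, 5 cytosolic genes were lower in C3.2 and 1 related difference was called. Fitted alone, C3.2 gave 74 calls among all genes, none of them a listed synthetase or related gene (0 lower, 0 higher), and C17.2 gave 0 mitochondrial genes higher. The cause of these shifts was not tested.

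Leaving out 1 library gave, in C17.2, 0 to 1 cytosolic genes higher, 0 to 1 mitochondrial genes lower and 0 to 3 higher, 5 to 8 related genes, 2400 to 4580 genes in all, and medians of -0.78 to -0.68 (cytosolic) and 0.0495 to 0.14 (mitochondrial). In C3.2 it gave 1 to 8 cytosolic genes lower and 0 to 1 higher, 0 to 2 mitochondrial genes higher, 2 to 5 related genes, 345 to 1818 genes in all, and a cytosolic median of -0.31 to -0.25. For the difference it gave 7 to 10 cytosolic and 0 to 1 mitochondrial genes, 1 related gene (without any library), and 560 to 1793 genes in all. A library left alone in its group was assumed to vary like the others. The unknown depth limits what can be said of low genes such as PARS2.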
